A study of Mus musculus with 18 samples.

Results

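The genes described here are 39 genes of the integrated stress response and the unfolded protein response, out of 16383 genes in the deposited expression table. They were chosen by symbol from what they are known to do and not from a measured value, but with earlier results of these data known. They comprise 6 stress regulators, 9 enzymes of amino acid and one-carbon synthesis, 4 genes of amino acid transport or receptors, 4 aminoacyl-tRNA synthetases, 13 genes of endoplasmic reticulum (ER) folding together with their transcription factor Xbp1, and 3 genes of ER-associated degradation. All 39 were in the table and all 39 passed the filter on low values, which required a CPM (reads of the gene scaled to a fixed library size) of at least 1 in at least 4 libraries.

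The libraries came from mouse cell lines grown out of spontaneous lung or liver metastases of pancreatic ductal adenocarcinoma (PDAC). RNA was sequenced from 18 libraries of 6 lines: 42-3 and 6-2 from lung, and 42-2, G45-2, 6-3 and 13-2 from liver. The labels give KrasL/+ and p53F/+ alleles with p48-Cre (written p48+/T for most libraries) in every line, controls included, and SIRT6F/F in every line but 13-2. The p48 gene, also called Ptf1a, is active in pancreatic progenitors, so Cre driven from it acts in the pancreatic lineage. Cells were infected with lentivirus carrying a non-targeting (NT) hairpin or 1 of 2 hairpins against Gstt1, a glutathione S-transferase, kept under puromycin for 48 h to select infected cells, and lysed for RNA once they had been split. There were 8 NT control, 6 shRNA 1 and 4 shRNA 2 libraries, all grown in RPMI with serum. Lines 42-3 and 42-2 were each sequenced in 2 sets that carry different library codes, each set with its own control. They are called here the first and the second set. The series thus holds 8 sets of a control with its knockdown libraries, and G45-2 and 6-3 have both hairpins against 1 control. The labels do not say that libraries of a group came from separate cultures, so p-values here cover the scatter of these libraries and lines and that scatter may be technical.

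Both responses are shared answers of a cell to stress. In the integrated stress response, kinases that sense amino acid shortage, misfolded protein in the ER, haem shortage or viral RNA phosphorylate eIF2, which slows translation in general but favours translation of Atf4. Atf4 then switches on genes that make, import and charge amino acids. In the unfolded protein response, the ER sensors PERK, IRE1 and ATF6 act through Atf4, spliced Xbp1 and cleaved ATF6 to raise chaperones and degradation genes of the ER. Both responses are known to be active in many tumours, PDAC among them.

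Promoter sequence was not itself used to choose the genes. They were chosen as known members of these responses, whose factors bind the elements below, so matches among them are no independent finding. The 250 bases before the start site of 4 genes are printed in lower case with the matched element in capitals, as they stand in RefSeq. These 4 were chosen because 3 types of element occur in them. Hspa5 and Creld2 carry the ER stress response element (ERSE), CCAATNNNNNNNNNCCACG, bound by NF-Y with ATF6. In Creld2 it lies on the opposite strand. Herpud1 carries ERSE-II, ATTGGNCCACG. Asns carries the C/EBP-ATF response element (CARE), TGATGNAA, to which Atf4 binds, and Herpud1 has one on the opposite strand.
Hspa5 (GRCm38.p6, chr2:34771840-34772089, plus strand): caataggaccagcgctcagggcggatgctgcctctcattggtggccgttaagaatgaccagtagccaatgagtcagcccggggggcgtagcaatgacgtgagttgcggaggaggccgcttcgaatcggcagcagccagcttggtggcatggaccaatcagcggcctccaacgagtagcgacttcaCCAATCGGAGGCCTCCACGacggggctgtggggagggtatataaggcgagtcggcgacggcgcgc
Creld2 (GRCm38.p6, chr15:88819396-88819645, plus strand): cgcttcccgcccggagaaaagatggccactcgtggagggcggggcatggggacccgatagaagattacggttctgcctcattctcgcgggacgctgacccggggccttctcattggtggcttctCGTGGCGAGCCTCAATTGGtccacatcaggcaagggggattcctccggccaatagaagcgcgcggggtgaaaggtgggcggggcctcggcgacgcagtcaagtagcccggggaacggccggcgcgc
Herpud1 (GRCm38.p6, chr8:94386179-94386428, plus strand): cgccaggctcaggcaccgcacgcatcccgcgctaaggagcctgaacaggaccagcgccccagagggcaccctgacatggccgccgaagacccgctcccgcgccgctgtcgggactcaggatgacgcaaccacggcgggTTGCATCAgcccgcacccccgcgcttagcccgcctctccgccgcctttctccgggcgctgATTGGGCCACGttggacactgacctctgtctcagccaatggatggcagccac
Asns (GRCm38.p6, chr6:7693210-7693459, minus strand): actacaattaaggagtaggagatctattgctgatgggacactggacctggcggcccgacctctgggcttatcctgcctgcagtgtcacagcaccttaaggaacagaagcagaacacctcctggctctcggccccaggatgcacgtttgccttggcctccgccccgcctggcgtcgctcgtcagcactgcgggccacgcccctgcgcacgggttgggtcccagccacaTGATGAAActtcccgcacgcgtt
The table held 33 of the 39 genes. Aldh1l2, Slc7a5, Wars, Nars, Hyou1 and Manf had no entry. Both strands were searched in 32851 promoter windows. ERSE was found in 0.113% of them (0.13% of all genes with a window) and in 5 of the 33 genes: Hspa5, Hsp90b1, Calr, Canx and Creld2. Read on the strand of the motif, the matches were as follows, with the fixed letters in capitals.
Hspa5: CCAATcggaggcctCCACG
Hsp90b1, farther from the start: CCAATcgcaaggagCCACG
Hsp90b1, nearer to the start: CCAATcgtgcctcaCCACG
Calr: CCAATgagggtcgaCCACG
Canx: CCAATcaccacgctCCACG
Creld2: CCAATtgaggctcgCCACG
The first base of the Hspa5 match lay 65 bases before the start, and that of the Canx match 145. ERSE-II was in 0.0304% of windows (0.037% of genes) and in Herpud1 alone of the 33 genes. CARE was in 3.45% of windows (3.91% of genes) and in 5 of the 33 genes, namely Asns, Pycr1, Vldlr, Gars and Herpud1. The Vldlr match was in the second of its 2 windows. The unfolded protein response element TGACGTGG was in 0.563% of windows (0.603% of genes) and in 0 of the 33. ERSE, ERSE-II and this element share the letters CCACG on 1 or the other strand. A match describes these letters and no binding was measured.

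Gstt1 was lower than in the control of the same set in 10 of 10 knockdown libraries. The 42-2 controls were low, at 2.67 and 0.616 CPM, against 0.373 and 0.0687 with knockdown, and the other controls had 24.3 to 52.5 CPM. Its CPM was 37.6, 38.8 and 52.5 in the lung controls against 0.352, 0.238 and 0.358 with knockdown. The G45-2 values were 43.8 in the control, 23.9 with shRNA 1 and 5.15 with shRNA 2, and in 6-3 it was 25.4, 19.2 and 0.250. In 13-2 it was 24.3 and 0.283. Depth was between 8411436 and 25552912 reads, so 3 reads correspond to at most 0.357 CPM, far under the lowest member value of 1.28 CPM.

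Several sets did not look like 1 line with and without a hairpin. In both 42-3 sets, 6-2, 13-2 and the first 42-2 set, the control and the knockdown differed in Y-linked transcripts, in Xist or in Cdkn2a and Cdkn2b. In 6-2, for example, Ddx3y was 216 and 1.08 CPM and Cdkn2a 170 and 0.461, control first. In 13-2, Cdkn2a was 109.7 in the control and 0.0707 with knockdown. The first 42-2 control had Xist at 0.0494 CPM and the second at 41.7, so these controls of 1 named line also differed. In the second 42-2 set the Y-linked transcripts were low on both sides, Ddx3y at 3.00 and 0.0687. G45-2 and 6-3 held Ddx3y and Cdkn2a on both sides, although Kdm5d in G45-2 was 29.8 in the control and 0 with shRNA 1. In 6-3 and 13-2 the controls and the knockdowns also carry different library codes, so code and knockdown cannot be told apart within those lines. Every lung set is among the 5 sets that differed in line transcripts, so no comparison of lung with liver can be made without them, and what set these libraries apart was not tested.

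Among markers of the tumour epithelium, Krt8 was 7.15 to 4113 CPM and Krt18 70.8 to 6967 CPM over all libraries. Krt7 was 0.0391 to 1984 CPM, and 0.0391 in the first 42-3 knockdown against 413.5 in its control. In 13-2 it was 203 and 7.49. The summed epithelial list was 539 to 15160 CPM in controls and 375 to 7683 with knockdown. The 8 fibroblast markers in the table summed to 6.13 to 2920 CPM in controls and 4.16 to 6453 with knockdown. They were high in both libraries of the second 42-2 set and in the first 42-3 knockdown, where Col3a1 was 3625 against 0.0736 in its control, and Epcam 0.0391 against 60.5. The 6 leukocyte markers in the table, mainly Cd14, summed to 95.2 to 875 CPM in controls and 20.6 to 226 with knockdown. Ptprc did not exceed 1.67 CPM and was at 0 in 3 libraries. The 5 endothelial markers summed to at most 11.4 CPM, with Emcn at 0 in 11 libraries. Hepatocyte markers summed to at most 40.3 CPM, with Ttr at 0 in 13 libraries, and lung epithelium markers to at most 7.63. The acinar markers summed to at most 20.6 CPM. In bulk RNA, fewer cells of a type and less RNA per cell cannot be told apart, and the part of these markers in the values that follow was not tested.

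The first question was whether Gstt1 knockdown moved these genes across the 8 sets. No member passed an adjusted p of 0.05 in limma with the set as a block: 0 of 39, where 0.0387% of all 12931 genes tested passed. The unadjusted p was under 0.05 for 6 of the 39 (15.4%), against 17.1% of all genes. Without 6-3 it was 3 (7.69%, against 12.0% of all genes), and without the 5 sets that differed in line transcripts and the second 42-2 set it was 11 (28.2%, against 13.0%). That last fit holds only G45-2 and 6-3, where both hairpins of a line share 1 control. Its p-values thus rest on few libraries and largely on how alike G45-2 and 6-3 were in the effect of each hairpin. In the fit of all 8 sets the difference was above 0 for 18 and below 0 for 21 members. Its median was -0.01 on the log2(CPM + 1) scale, with -0.03 over all genes. DESeq2 on the reads recovered from the CPM values called 2 members, Ssr1 higher and Vldlr lower, among 8.21% of all genes, and edgeR called 0 members and 0 genes. Over the 39 genes the median difference per set ranged from -0.66 to 0.60 on that log2 scale, so the near-zero mean covered sets that went opposite ways.

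**Figure D1:**
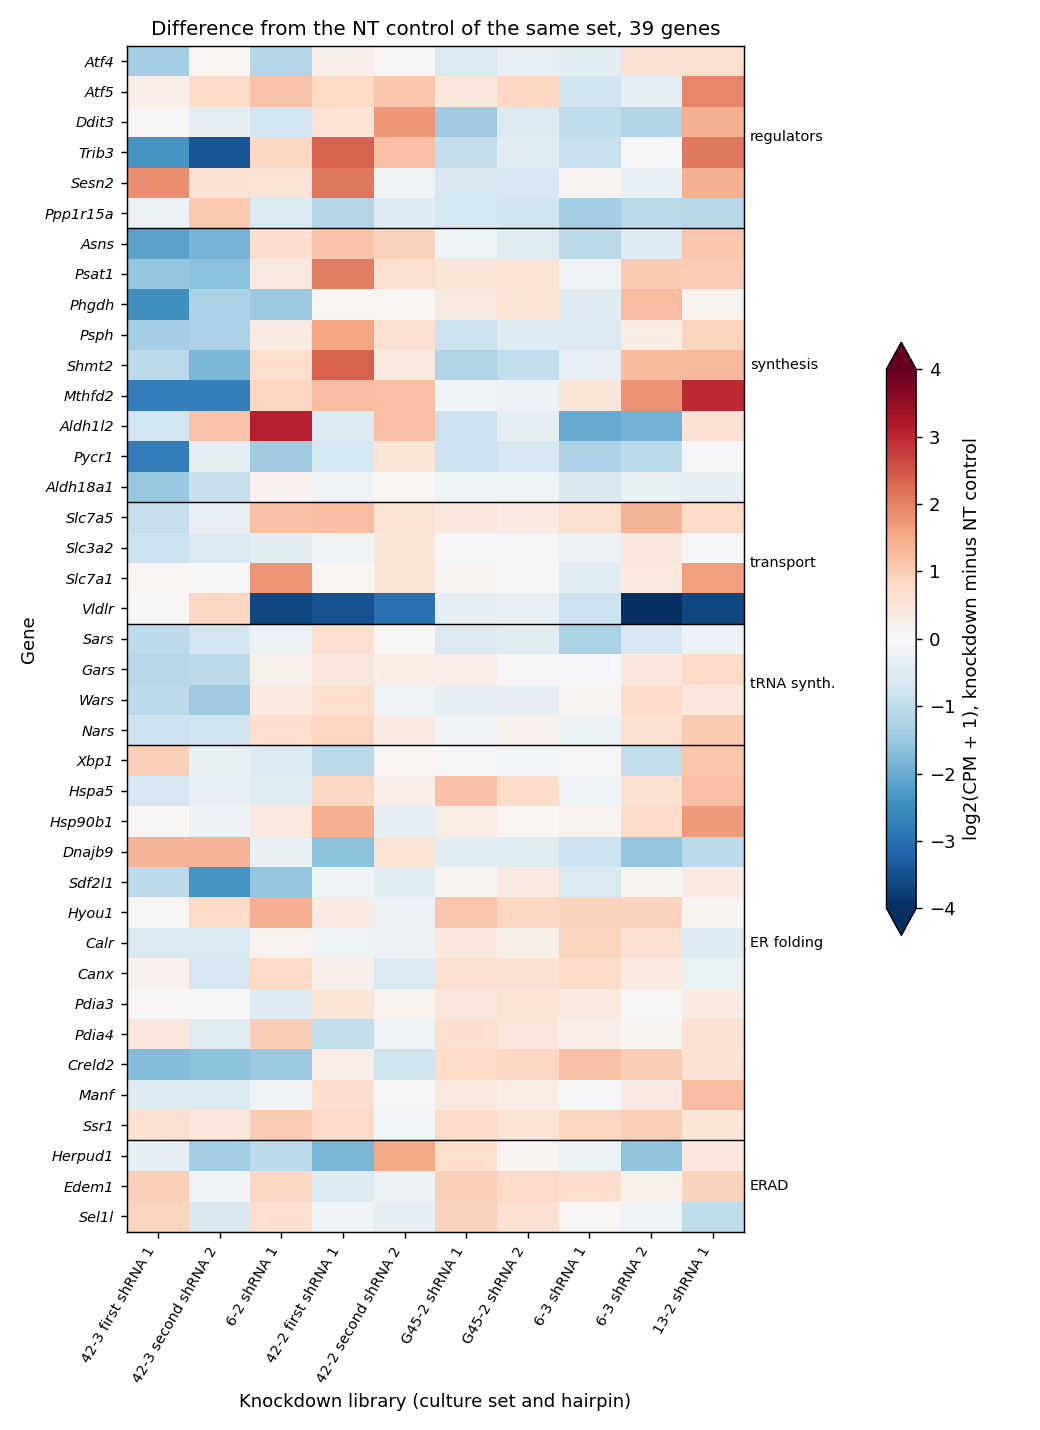
Each cell is the log2(CPM + 1) difference between a knockdown library (columns) and the NT control of the same set for 1 of the 39 genes (rows, grouped by role), red for higher with knockdown and blue for lower. The synthesis genes and tRNA synthetases are blue in both 42-3 columns, except Aldh1l2 in the second, and mostly red in the 42-2 and 13-2 columns, and Vldlr is dark blue in 5 columns.

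Among the regulators, Atf4, the central transcription factor of the integrated stress response, had no common direction. Its CPM was 282 in the first 42-3 control and 109 with knockdown, and 399 and 418 in the second. In 6-2 it was 847 and 374. In liver it was 372 and 439.6 in the first 42-2 set, 329 and 340.4 in the second, and 255 and 401 in 13-2. G45-2 had 245 in the control, 159.6 with shRNA 1 and 197 with shRNA 2, while in 6-3 it was 270.3, 199.5 and 405. Controls and knockdowns overlapped, and the fitted difference was -0.17 (SE 0.22, limma adjusted p = 0.733).

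Ddit3, which encodes the factor CHOP that links lasting ER stress to cell death, was likewise mixed. It was 12.0 and 12.4 CPM in the first 42-3 set, 22.8 and 17.1 in the second and 90.02 and 52.6 in 6-2, control first. It was 36.9 and 54.3 in the first 42-2 set, 48.7 and 166 in the second, and 27.6 and 76.3 in 13-2. For G45-2 the values were 41.5 in the control and 15.0 and 27.3 with the hairpins, and in 6-3 30.1, 14.3 and 12.4. The 42-2 and 13-2 knockdowns were above their controls and the G45-2 and 6-3 knockdowns below. Across sets the fit gave -0.002 (SE 0.35).

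Atf5, a transcription factor translated like Atf4, was higher with knockdown in 8 of 10 libraries. In 13-2 it was 7.67 CPM in the control and 32.4 with knockdown, and in 6-2 it was 16.2 and 36.7. In 6-3 it was lower, at 23.7 in the control against 13.3 and 17.98. The fitted difference was 0.71 (SE 0.28, limma adjusted p = 0.223), and 0.24 without the 5 sets. Ppp1r15a, which encodes GADD34, the subunit that directs eIF2 dephosphorylation, was lower in 9 of 10 libraries. It was 152.7 in the 6-3 control against 58.3 and 71.1, 171 in the G45-2 control against 104 and 97.5, and 468 against 217 in 13-2. The exception was the second 42-3 set, with 109 in the control and 227 with knockdown. The limma fit gave -0.56 (SE 0.22, limma adjusted p = 0.223), and -0.88 without the 5 sets.

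Sesn2, a sestrin that restrains mTORC1 when leucine is scarce, was 16.1 and 61.6 CPM in the first 42-3 set, 31.5 and 47.7 in the second and 30.3 and 44.6 in 6-2. It was 15.2 and 68.3 in the first 42-2 set and 25.8 and 71.4 in 13-2, but 27.7 against 17.5 and 16.9 in G45-2. The 5 sets whose libraries differed in line transcripts were thus all higher, and the fitted 0.53 (SE 0.29) became -0.29 without them. Trib3, a pseudokinase target that feeds back on Atf4 and is named after its values were seen, was 23.2 and 3.72 CPM in the first 42-3 set and 35.1 and 2.38 in the second. It was 17.9 and 95.9 in the first 42-2 set and 5.42 and 26.7 in 13-2. Its direction was opposite in these lines.

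Of the 6 role groups, the 9 synthesis enzymes had the medians that lay farthest apart between sets. Their median difference was -1.54 in the first 42-3 set and -1.28 in the second, where 9 and 8 of 9 were lower. It was 1.15 in the first 42-2 set, 0.63 in the second and 0.88 in 13-2, with 6, 9 and 7 of 9 higher. In 6-2, the other lung line, it was 0.36 with 7 of 9 higher, so the 2 lung lines did not share the pattern. G45-2 gave -0.19 and -0.39, and 6-3 gave -0.59 with shRNA 1 and 0.29 with shRNA 2. The median of all genes was between -0.15 and 0.11 in every library.

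Asns, asparagine synthetase and a standard reporter of Atf4 activity, was 193 CPM in the first 42-3 control and 42.5 with knockdown, and 229 and 63.0 in the second. In 6-2 it was 164 and 262. It was 198 and 442 in the first 42-2 set, 237 and 448 in the second, and 73.2 and 156 in 13-2. In G45-2 the CPM was 176 in the control and 155 and 126 with the hairpins, and in 6-3 484 against 234 and 337. The knockdown was lower in 42-3, G45-2 and 6-3 and higher in 6-2, 42-2 and 13-2, and the fitted difference was -0.22 (SE 0.38, limma adjusted p = 0.803). In the second 42-3 set Atf4 messenger RNA itself was level, at 399 and 418, while Asns was 27.5% of its control.

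Serine is made from a glycolytic intermediate by Phgdh, Psat1 and Psph in turn. Phgdh was 199.5 CPM in the first 42-3 control and 35.3 with knockdown, 184 and 75.1 in the second, and 246 and 87.4 in 6-2. It was 148 and 157 in the first 42-2 set, 189 and 200.1 in the second, and 78.0 and 85.3 in 13-2. In G45-2 it was 111 against 143 and 162, and in 6-3 173 against 121 with shRNA 1 and 406 with shRNA 2. The 3 lung knockdowns were at 17.7%, 40.9% and 35.6% of their controls, and 6 of 7 liver knockdowns were above theirs. Over all sets the fitted difference was -0.35 (SE 0.33, limma adjusted p = 0.618), and it was 0.20 without the 5 sets.

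Psat1, Shmt2 and Mthfd2 were singled out after their values were seen. Mthfd2, the mitochondrial folate enzyme, was 98.5 and 13.6 CPM in the first 42-3 set and 78.3 and 10.9 in the second, control first. In 13-2 it was 7.09 and 63.7, and in the second 42-2 set 115 and 267. Psat1 was 277 and 94.6 in the first 42-3 set and 292 and 91.5 in the second, but 97.6 and 402.5 in the first 42-2 set. Shmt2, which turns serine into glycine in mitochondria, was 253 and 70.9 in the second 42-3 set and 85.9 and 441 in the first 42-2 set. The 13-2 and first 42-2 controls had the 2 lowest Psat1 and Shmt2 levels of the 8 controls, and the controls of these lines differed before any knockdown.

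Pycr1 and Aldh18a1 make proline. Pycr1 was lower with knockdown in 9 of 10 libraries, from 40.6 to 5.17 CPM in the first 42-3 set, from 54.8 to 19.8 in 6-2, and from 58.6 to 24.2 and 27.1 in 6-3. In 13-2 it was 18.2 and 17.4, and in the second 42-2 set it was higher, at 35.7 and 49.97. Its fitted difference was -0.79 (SE 0.28, limma adjusted p = 0.197), and -0.63 without the 5 sets. Aldh18a1 was lower in 8 of 10 libraries, with 220.3 against 75.6 in the first 42-3 set and 175.5 against 112 and 142 in 6-3, and its fitted difference was -0.40 (SE 0.19). Aldh1l2, a mitochondrial folate enzyme, was 3.96 and 41.6 CPM in 6-2 and 9.13 against 1.51 and 1.75 in 6-3. Its log2 differences in the other libraries lay between -0.85 and 1.21.

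**Figure D2:**
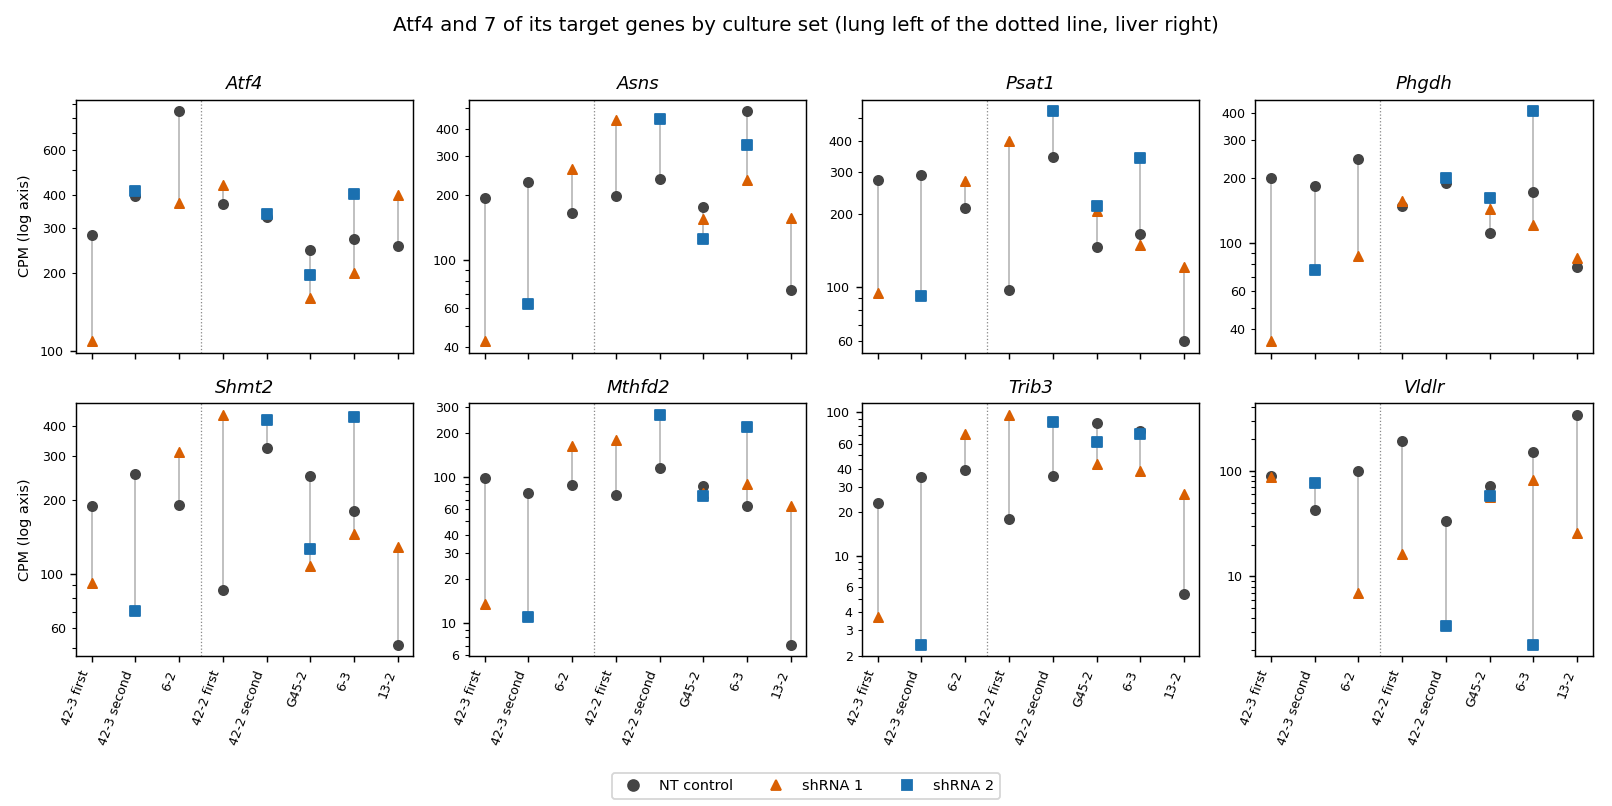
CPM on a log axis for Atf4 and 7 genes it is known to control, with the 8 sets on the horizontal axis, lung to the left of the dotted line. Black circles are NT controls, orange triangles shRNA 1 and blue squares shRNA 2, and a grey line joins the libraries of a set. Asns, Psat1, Shmt2, Mthfd2 and Trib3 lie below the control in both 42-3 sets and above it in both 42-2 sets and 13-2, while Vldlr lies under the control in 6-2, 42-2, 6-3 and 13-2.

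Vldlr, a receptor for triglyceride-rich lipoproteins that Atf4 can induce, had the most negative fitted difference of the 39 genes, -2.12 (SE 0.70), which did not pass in limma (adjusted p = 0.172). It was 99.4 CPM in the 6-2 control and 7.01 with knockdown, 192 and 16.4 in the first 42-2 set, 33.3 and 3.37 in the second, and 339 and 25.9 in 13-2. In 6-3 it was 149 in the control, 82.1 with shRNA 1 and 2.25 with shRNA 2. In the first 42-3 set it was 89.5 and 87.7, in the second 42.7 and 76.2, and in G45-2 72.4 against 56.6 and 57.4. The level was thus at most 10.1% of the control in 5 libraries and between 55.0% and 178% in the other 5. Without the 5 sets the fitted difference was -1.78. The controls of both 42-2 sets also differed by 2.49 on the log2 scale in this gene, the largest such gap among the members.

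Slc7a5, the light chain of the leucine transporter LAT1, was higher with knockdown in 8 of 10 libraries. It was 174.5 and 395 CPM in 6-2, 164 and 386.5 in the first 42-2 set, 184 against 287 and 476 in 6-3, and 254 against 133 in the first 42-3 set. The limma fit gave 0.50 (SE 0.25, limma adjusted p = 0.323). Its partner Slc3a2 gave -0.15 (SE 0.17), so the 2 chains did not share a direction in the fit. Slc7a1, the arginine and lysine transporter, was 57.0 and 196 in 6-2 and 36.1 and 118 in 13-2, with differences between -0.46 and 0.47 in the other libraries.

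The 4 aminoacyl-tRNA synthetases, which load amino acids onto tRNA, were all lower in both 42-3 knockdowns, with medians of -1.05 and -0.92. Their median was 0.69 in the first 42-2 set, 0.60 in 13-2 and 0.30 in 6-2. Sars, for serine, was 372 and 179 CPM in the first 42-3 set, 367 and 218.5 in the second, 468 and 393 in 6-2, and 550.1 against 227 and 346 in 6-3. In the first 42-2 set it was 372 and 597. It was lower in 8 of 10 libraries, with a fitted difference of -0.39 (SE 0.20, limma adjusted p = 0.347). Nars, for asparagine, was 469.6 and 262 in the first 42-3 set, 624.9 and 356 in the second and 386 and 619.8 in 6-2. It was 686 against 572 and 1065 in 6-3 and 268 and 559 in 13-2, with a fitted 0.19 (SE 0.25).

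Xbp1, the factor whose messenger RNA is spliced by IRE1, was 127 and 245.5 CPM in the first 42-3 set, 207 and 168 in the second, and 213 and 146 in 6-2. It was 225.5 and 105 in the first 42-2 set, 166 and 173 in the second, and 126.5 and 272 in 13-2. The G45-2 values were 128 against 125 and 119, and in 6-3 199.6 against 205 and 102. Its fitted difference was -0.11 (SE 0.24), and the table does not separate spliced from unspliced transcript.

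Hspa5, the chaperone BiP, whose promoter is printed above, was 1664 and 1055 CPM in the first 42-3 set, 3059 and 2455 in the second, and 3191 and 2266 in 6-2. It was 2200 and 3920 in the first 42-2 set, 2485 and 2974 in the second, and 1555 and 3604 in 13-2. G45-2 had 1521 in the control and 3398 and 2538 with the hairpins, and in 6-3 1155, 1014 and 1769. All 3 lung knockdowns were below their controls and 6 of 7 liver knockdowns above. Over all sets the fitted difference was 0.28 (SE 0.29, limma adjusted p = 0.655).

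Ssr1, a subunit of the translocon-associated complex through which proteins enter the ER, was the member of smallest p. It was 335 and 516.5 CPM in the first 42-3 set, 291 and 389 in the second, and 237 and 483 in 6-2. It was 257.5 and 436 in the first 42-2 set, 333 and 305 in the second, and 271 and 378 in 13-2. For G45-2 the values were 413 against 681 and 602, and in 6-3 254 against 462 and 487.5. It was higher in 9 of 10 libraries, though controls (237 to 413) and knockdowns (305 to 681) overlapped as groups. The limma fit gave 0.58 (SE 0.15, limma adjusted p = 0.119), 0.55 without the 5 sets, and 0.50 to 0.68 when each set was left out in turn. DESeq2 gave 0.59 with an adjusted p of 0.00216.

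Hyou1, a large chaperone that acts with BiP, was also higher in 9 of 10 libraries. In G45-2 the CPM was 53.7 CPM in the control and 117 and 96.9 with the hairpins, in 6-3 100.8 against 193 and 191, and in 6-2 106 against 291. In the first 42-3 set it was 114 and 117 and in the second 99.9 and 170.2. It was 142 and 177 in the first 42-2 set, 239 and 203 in the second, and 225 and 241 in 13-2. The fitted difference was 0.56 (SE 0.19, limma adjusted p = 0.182), and 0.67 without the 5 sets.

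Creld2 and Sdf2l1 are small ER proteins that strongly respond to unfolded protein. Creld2 was 128 and 37.9 CPM in the first 42-3 set, 258 and 82.0 in the second, and 192 and 68.4 in 6-2. In liver it was 79.9 and 97.2 in the first 42-2 set, 96.8 and 55.1 in the second, and 70.01 and 105 in 13-2. In G45-2 it was 79.4 against 135 and 140.3, and in 6-3 42.7 against 97.8 and 84.8. It was lower in every lung knockdown and higher in 6 of 7 in liver, and the fitted difference over all sets was -0.28 (SE 0.35). Sdf2l1 was 72.9 and 35.1 in the first 42-3 set, 123 and 22.9 in the second, and 96.3 and 31.3 in 6-2. In liver it was 42.7 and 37.4 and 99.0 and 72.6 in the 42-2 sets, 32.4 and 41.2 in 13-2, 41.3 against 44.2 and 53.0 in G45-2, and 37.5 against 24.4 and 40.5 in 6-3. The limma fit gave -0.61 (SE 0.30, limma adjusted p = 0.317).

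In G45-2 11 of the 13 ER folding genes were higher with each hairpin, with medians of 0.45 and 0.46 against -0.13 and -0.10 for all genes. In 6-3, 9 and 11 of 13 were higher, with medians of 0.27 and 0.39 against 0.11 and -0.06 for all genes. Of all genes, 41.5% and 43.5% were higher in G45-2 and 57.7% and 45.7% in 6-3, shRNA 1 first. In these 2 lines both hairpins share 1 control. Ddx3y and Cdkn2a were present in control and knockdown, but other markers differed. Krt7 was 1984 CPM in the G45-2 control against 6.49 and 2.98, and 1422 in the 6-3 control against 129.7 and 21.1. Epcam in G45-2 was 264 against 23.1 and 3.91, Cldn4 153.5 against 0.692 and 1.37, and Kdm5d 29.8 against 0 and 0.0621. Their part in the ER gene values was not tested. The medians were 0.04 and -0.32 in the 42-3 sets, -0.15 in 6-2, 0.28 and -0.14 in the 42-2 sets and 0.48 in 13-2. Of the 5 genes with an ERSE, all were lower in the second 42-3 set, with Calr at 1104 and 720.3 CPM, Canx at 1230 and 776 and Hsp90b1 at 1394 and 1193. All 5 were higher with both hairpins in G45-2 and with shRNA 2 in 6-3. Their differences there ran from 0.07 (Hsp90b1, G45-2 shRNA 2) to 1.16 (Hspa5, G45-2 shRNA 1). Elsewhere they were split. In 13-2, for example, the differences were 1.21 for Hspa5, 1.69 for Hsp90b1 and 0.58 for Creld2, and -0.50 for Calr and -0.26 for Canx.

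**Figure D3:**
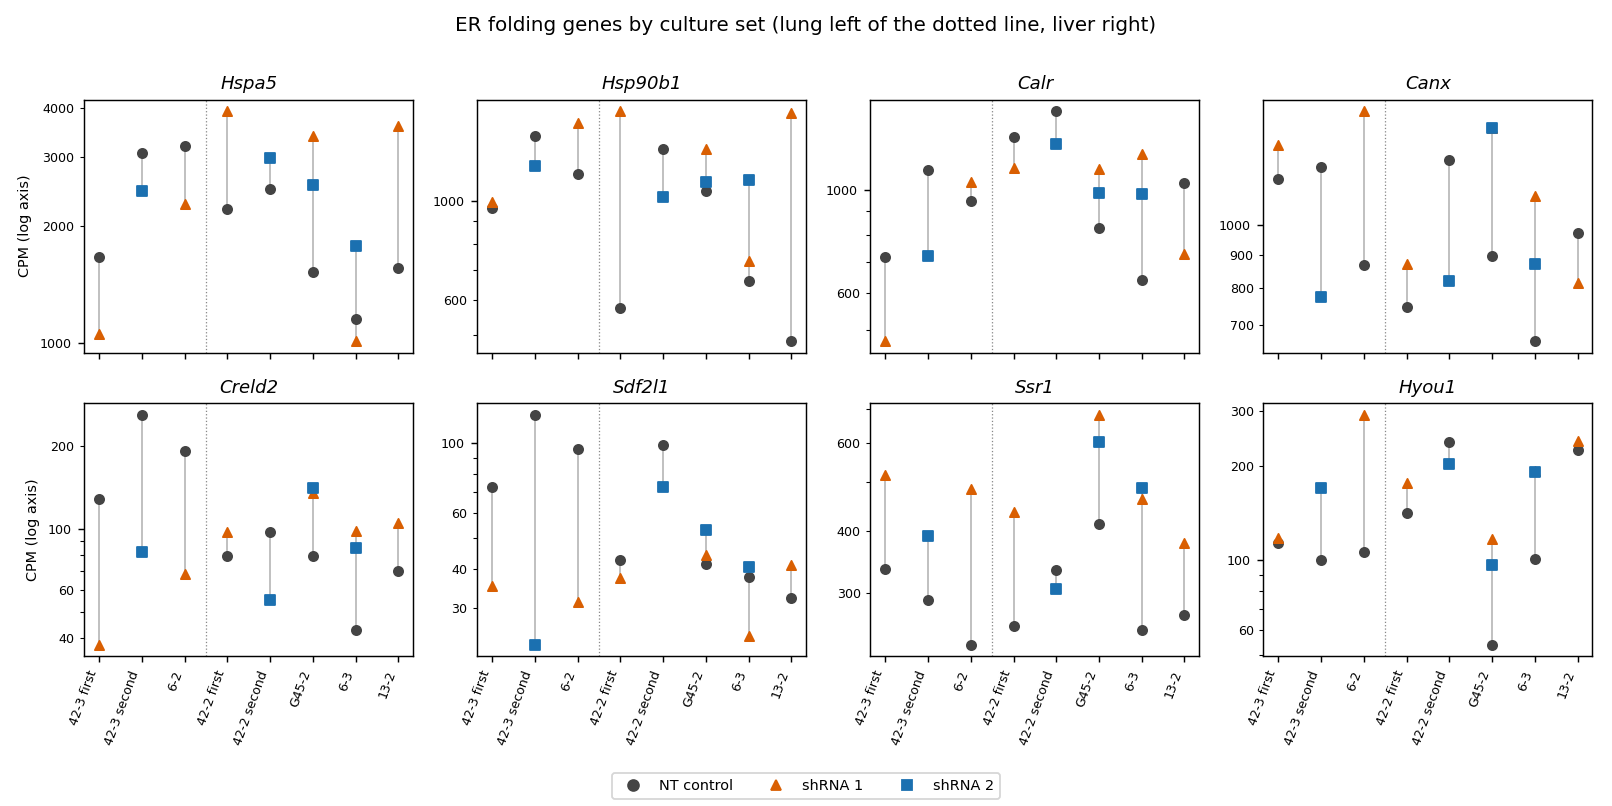
CPM on a log axis for 8 ER folding genes, arranged and marked as in the plot of Atf4 and its targets. Ssr1 and Hyou1 lie above the control in every set but the second 42-2 set, and Creld2 and Sdf2l1 lie below it in all 3 lung sets.

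The 3 degradation genes gave fitted differences between -0.41 and 0.36, and none had an unadjusted p under 0.05. Herpud1, which brings misfolded protein to the ubiquitin ligase Hrd1, was 167 and 130.2 CPM in the first 42-3 set, 245 and 94.99 in the second, and 341 and 166 in 6-2. It was 483 and 136 in the first 42-2 set but 114 and 331 in the second. In 6-3 it was 515 in the control, 427 with shRNA 1 and 168 with shRNA 2, in G45-2 105 against 170.5 and 114, and in 13-2 165 and 226. The 2 sets of line 42-2 were opposite, and the fitted difference was -0.41 (SE 0.35). Edem1, a mannosidase-like protein that selects glycoproteins for degradation, was higher in 7 of 10 libraries, with 114 and 224 CPM in the first 42-3 set, 151 and 138 in the second and 81.3 and 146 in 6-2. It was 142 and 96.7 in the first 42-2 set, 95.6 and 81.2 in the second, 109 against 210.4 and 184 in G45-2, 112 against 185 and 129 in 6-3, and 89.3 and 171 in 13-2. Its fitted difference was 0.36 (SE 0.19, limma adjusted p = 0.348). Sel1l, the adaptor of Hrd1, gave -0.01 (SE 0.22).

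**Figure D4:**
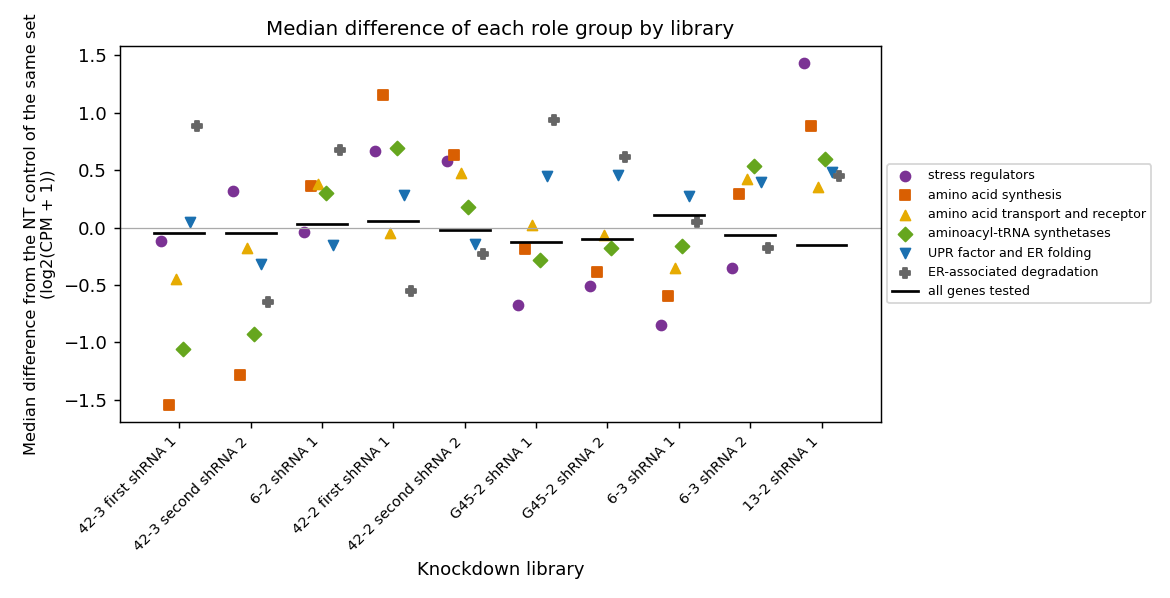
Median log2(CPM + 1) difference from the control for each role group (coloured symbols) and for all genes tested (black bars) in the 10 knockdown libraries. Synthesis genes (orange) are at -1.54 and -1.28 in the 42-3 sets and at 1.15 in the first 42-2 set, while the median of all genes stays near 0.

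The count of members past a log2 difference of 1 was read against all 12931 genes in each library. In the first 42-3 set 2 members were higher and 15 lower (14.8% and 19.9% of all genes), and in the second 3 and 12 (12.9% and 12.5%). These are 38.5% and 30.8% of the members on the lower side. In 6-2 6 were higher and 7 lower (23% and 24%). In the first 42-2 set 9 were higher and 5 lower (22.6% and 22.1%), and in the second 6 and 1 (2.85% and 5.71%). In 13-2 14 were higher, or 35.9% of the members, and 4 lower (10.5% and 15.3%). G45-2 had 2 and 2 with shRNA 1 (7.66% and 12.4%) and 0 and 0 with shRNA 2 (7.83% and 10.5%). In 6-3 there were 1 and 6 with shRNA 1 (11.3% and 7.06%) and 5 and 7 with shRNA 2 (10.3% and 15.6%). The members' share was over 1.5 times the background on the lower side in both 42-3 sets and with shRNA 1 in 6-3, and on the higher side in 13-2 and the second 42-2 set. It was above it by less on the higher side in the first 42-2 set (23.1%) and on both sides with shRNA 2 in 6-3 (12.8% and 17.9%). Each count compares 1 library with 1 control and has no test. Controls of 1 line also differed from each other. The median absolute difference between the 42-3 controls was 0.42 over the members, with 5 of 39 past 1, beside a median of 0.37 and 14.6% past 1 over all genes. Between the 42-2 controls it was 0.39, with 9 of 39 past 1, beside 0.54 and 26.3% over all genes.

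Each hairpin was then compared with its own controls. For shRNA 1, 0 of 39 members passed in limma (0% of all genes) and 7 had an unadjusted p under 0.05 (17.9%, against 16.1% of all genes). For shRNA 2, 0 passed (0% of all genes) and 2 had such a p (5.13%, against 6.45%). DESeq2 called Ssr1 and Pycr1 for shRNA 1 (6.32% of all genes) and 0 members for shRNA 2 (1.18%). In edgeR 0 members and 0 genes passed for each. The difference between the hairpins, tested directly, gave 0 of 39 members in limma (0% of all genes). The unadjusted p was under 0.05 for 0 members, against 0.495% of all genes. In edgeR 0 members and 0 genes passed, and DESeq2 called 0 members and 0.00773% of all genes. Within lines that had both, shRNA 2 and shRNA 1 of G45-2 differed by 1 or more on the log2 scale in 0 members (4.52% of all genes). In 6-3 they did so in 7 (20.5% of all genes): Atf4, Psat1, Phgdh, Shmt2, Mthfd2 and Vldlr besides Herpud1. The first 5 were higher with shRNA 2, and Vldlr and Herpud1 lower. Gstt1 was 19.2 CPM with shRNA 1 and 0.250 with shRNA 2 in that line.

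A further question of the design is whether the knockdown acted differently in lung and liver lines. The direct test of that difference called 0 of 39 members in limma, where 0.186% of all genes passed. The unadjusted p was under 0.05 for 12 members (30.8%), against 17.7% of all genes. Without the second 42-3 set the count was 5 (12.8%, against 14.3% of all genes) and without the first 6 (15.4%, against 12.6%). Without 6-2, the other lung set, it was 17 (43.6%, against 19.7%), and leaving out each liver set in turn gave a count of 9 to 13. It was 7 (17.9%) without 6-3 and 13-2, where 12.1% of all genes had such a p, and 7 with no replicate block, against 16.1%. For 26 of the 39 the knockdown effect was lower in lung, with a median of -0.61 against 0.02 over all genes. DESeq2 called 5 members, all lower in lung (Sdf2l1, Creld2, Mthfd2, Psat1 and Phgdh), among 7.92% of all genes. In edgeR 0 members and 9 of all 12931 genes passed. All 9 synthesis genes but Aldh1l2 and all 4 tRNA synthetases had a negative value, with medians of -1.29 and -0.82. The median of the 13 ER folding genes was -0.46. The lung lines 6-2 and 42-3 went opposite ways in the synthesis and synthetase groups. Their median knockdown minus control values were 0.36 and 0.30 in 6-2. They were -1.54 and -1.05 in the first 42-3 set and -1.28 and -0.92 in the second.

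Creld2 had the smallest p, with a lung minus liver difference of -2.08 (SE 0.39, limma adjusted p = 0.0684). Its knockdown minus control values on the log2 scale were -1.73, -1.64 and -1.47 in lung and -0.80 to 1.18 in liver, without overlap. Leaving out the second 42-2 set gave -2.33, which passed in limma, the single member to do so in any set left out. Among libraries with 1 shared library code, the first 42-3 set and 6-2 had -1.73 and -1.47 and the first 42-2 set 0.28. In another code, the second 42-3 set had -1.64 and G45-2 0.75 and 0.81. For Phgdh the difference was -1.93 (SE 0.40, limma adjusted p = 0.0778), with -2.46, -1.28 and -1.48 in lung and -0.51 to 1.23 in liver, again without overlap. Within the first of these codes it was -2.46 and -1.48 against 0.08, and within the second -1.28 against 0.36 and 0.53. Sdf2l1 gave -1.61 (SE 0.40, limma adjusted p = 0.109), and its 3 lung values, -1.03, -2.37 and -1.59, were below the lowest liver value of -0.60. Creld2, Phgdh and Sdf2l1 were the members of smallest p in this comparison, so such a separation goes with how they were picked. How many of all genes separate in this way was not counted, and the 3 lung values include both sets of 42-3.

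For Mthfd2 (-2.75, SE 0.91) and Psat1 (-1.83, SE 0.57) the lung values did overlap those of liver, since the 6-2 values were 0.87 and 0.36. On the positive side, Ppp1r15a gave 1.05 (SE 0.34, limma adjusted p = 0.159) and Dnajb9, an ER co-chaperone of BiP, 1.60 (SE 0.55, limma adjusted p = 0.184). Dnajb9 was 22.9 and 59.7 CPM in the first 42-3 set and 25.4 and 67.4 in the second, but 80.6 and 25.3 in the first 42-2 set and 131 and 62.7 in 13-2. In 6-2 it was 46.2 and 37.7. The lung arm rests on 2 lines and on 3 sets whose libraries differed in line transcripts, so lung origin and those differences cannot be told apart.

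**Figure D5:**
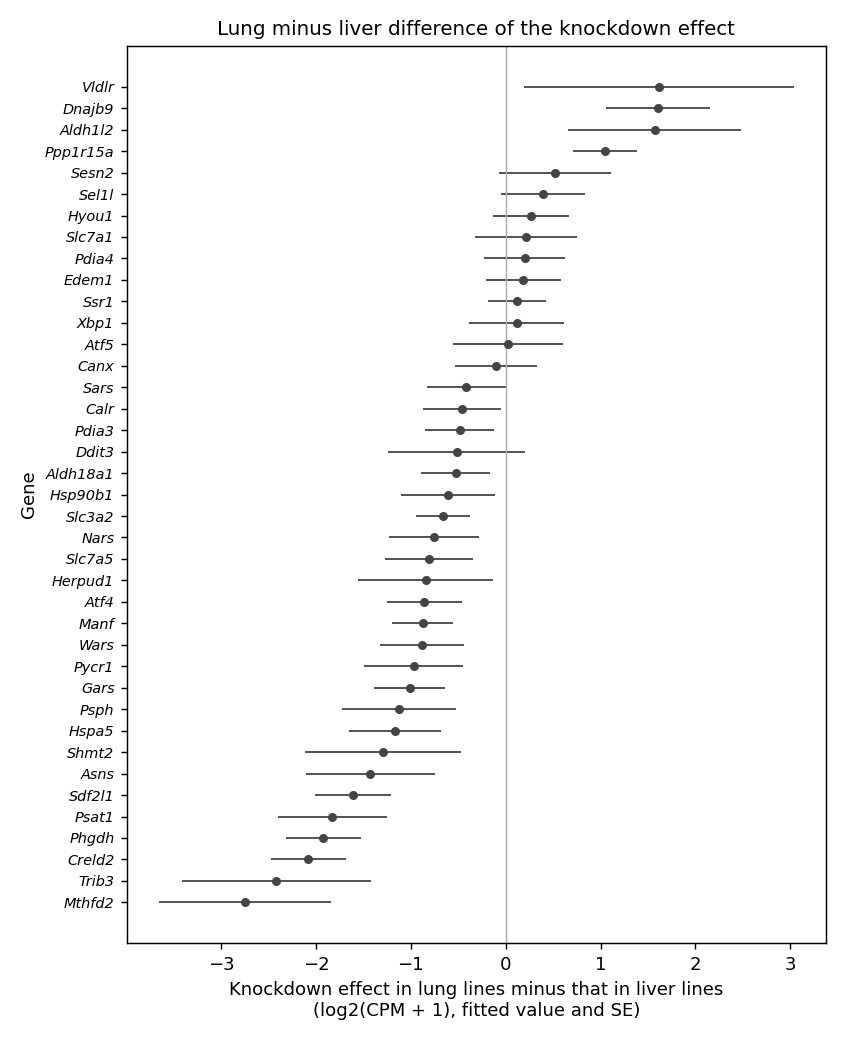
Knockdown effect in lung lines minus that in liver lines for each of the 39 genes, as the fitted log2(CPM + 1) value (point) and its SE (bar), sorted by size. Points run from -2.75 for Mthfd2 to 1.61 for Vldlr, 26 lie below 0, and no gene passed the adjusted threshold.

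The lung and liver NT controls, which also enter the difference above, were compared as line means, 2 lung against 4 liver lines. No member passed in limma (0 of 39, with 0.0083% of 12050 genes), and 5 members (12.8%) had an unadjusted p under 0.05, against 13.3% of all genes. DESeq2 called Creld2 and Sdf2l1 higher in lung, among 4.07% of all genes, and edgeR called 0 members and 0 genes. Creld2, the member of smallest p here, was 128, 258 and 192 CPM in the lung controls and 42.7 to 96.8 in the liver controls, without overlap. The limma fit gave 1.45 (SE 0.32, limma adjusted p = 0.182). Creld2 is shown for its small p, so this separation goes with how it was picked. The share of all genes whose lung and liver controls separate was not counted, and the lung values include both controls of the same line. Sdf2l1 was 72.9, 123 and 96.3 in lung and 32.4 to 99.0 in liver, where the second 42-2 control was the highest, and gave 1.15 (SE 0.31, limma adjusted p = 0.244). With knockdown Creld2 was 37.9, 82.0 and 68.4 CPM in the lung lines and 55.1 to 140.3 in the liver lines.

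Other genes of the same pathways, 100 by list and 98 of them tested, were counted in the same fits. Under knockdown 0 of 98 passed in limma, 15 had an unadjusted p under 0.05 (15.3%, against 17.1% of all genes) and the median was 0.03. DESeq2 called 3 (Atf3 and Cbs lower, Uggt1 higher), where it called 8.21% of all genes. In edgeR 0 of them and 0 of all genes passed. Uggt1, which checks the folding of glycoproteins and marks failures for another round, was higher in 9 of 10 libraries. It was 193 CPM in the G45-2 control against 444.5 and 374, 104 against 209 and 168 in 6-3, 148 against 376 in 6-2, and 144.5 against 353 in the first 42-2 set. In the 42-3 sets it was 151 and 238, and 259 and 277, in 13-2 134 and 249, and in the second 42-2 set 218 and 167. The fitted difference was 0.67 (SE 0.16, limma adjusted p = 0.111), beside 0.58 for Ssr1 and 0.56 for Hyou1.

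Slc38a2, the amino acid transporter SNAT2, was 384 CPM in the 6-3 control against 447 and 586, 485 against 698.5 and 708 in G45-2, and 465.7 against 1066 in 13-2. The limma fit gave 0.52 (SE 0.18, limma adjusted p = 0.194). Atf3, a stress-induced repressor downstream of Atf4, was 422 CPM in the 6-3 control and 3.497 and 22.9 with the hairpins, 44.9 and 3.01 in the first 42-3 set, and 239.9 and 47.4 in 13-2. It was higher with knockdown in the second 42-3 set, at 219 and 501. In the lung minus liver comparison of the effect 0 of 98 passed in limma. The unadjusted p was under 0.05 for 18 of them (18.4%, against 17.7% of all genes). In edgeR 0 of them and 9 of all 12931 genes passed. DESeq2 called 8, beside 7.92% of all genes. There, 15 of the 16 other tRNA synthetases had a negative value, with a median of -0.69. The 2 lung lines were not alike in these 16. In 6-2 all but Cars (-0.38) and Eprs (-0.20) were higher with knockdown. In the 42-3 sets all were lower but Qars in the first (0.34) and Vars in the second (0.03). In the hairpin difference 0 of 98 passed in limma, 1 had an unadjusted p under 0.05, and edgeR and DESeq2 called 0. In the NT controls 0 of 97 passed in limma, and 10 had an unadjusted p under 0.05 (10.3%, against 13.3% of all genes). In edgeR 0 of them and 0 of all genes passed. DESeq2 called 1, the cystathionine synthase gene Cbs, beside 4.07% of all genes.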

How the data were processed

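The 39 genes, their role groups and the list of other pathway genes were chosen with earlier results of these data known. The authors deposited 1 table of CPM values, read counts of a gene scaled to a fixed library size. Per the submitters' processing notes the build is mm9. Aligner, counter and use of strand: not given in the sources used here. All 16383 genes were kept, and 32 symbols stood in more than 1 row. CPM values were whole multiples of 1 read in 100% of cases within 0.01 reads, which gave depths of 8411436 to 25552912 reads. This limits precision little at the members' levels.

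limma 3.58.1 (R 4.3.3, trend, two-sided, Benjamini-Hochberg over all genes at 0.05) was run on log2(CPM + 1) for genes that reached 1 CPM in 4 or more libraries, a scale that understates differences of low genes. The culture set was a block. The pairing comes from the line and library code in the labels. Over 10 control and knockdown pairs, deviations from the group means correlated with r between -0.36 and 0.70 across genes, over 0.1 in 4 of 10. No 2 libraries were duplicates (smallest chi-square per degree of freedom 33 over 153 pairs). edgeR 4.0.16 and DESeq2 1.42.0 on recovered reads, other pseudocounts, filters, scalings and blocks, and leaving out sets were alternatives. The scripts were tested on simulated data. Named genes were Atf4, Ddit3, Asns, Phgdh, Xbp1 and Hspa5, the 2 of smallest p per role group under knockdown, the 2 of smallest p in each other comparison, the members of largest fitted difference in each direction, and any member past the threshold in limma. Of the other pathway genes, the 3 of smallest p under knockdown were named. Outside these rules, values are also given for Aldh1l2, Slc3a2, Slc7a1, Dnajb9, Hsp90b1, Calr, Canx and Sel1l. They are also given for Trib3, Psat1, Shmt2 and Mthfd2, and for the pathway genes Cars, Eprs, Qars and Vars. Promoters are from RefSeq (GRCm38.p6). Retrieval signals of the proteins, a planned description, were not analysed here.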

Additional observations from a re-analysis of the deposited data

Results flagged for a closer look

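Of 63 groups of values examined for a library far from the others of its group, 5 stood out. The rule flags about 1 in 20 groups of independent, normally distributed values. CPM values of related genes and lines need not be so, and no excess can be read from this count. The Atf4 level in the 6-2 control (847 CPM) was the highest of 8 controls, the next being 399. Ddit3 was highest in the same library (90.02 CPM against 48.7 or less in the other controls). Ddit3 with shRNA 2 was 166 CPM in the second 42-2 set and 27.3 or less in the other shRNA 2 libraries. Asns was 484 CPM in the 6-3 control and 237 or less in the other controls. Herpud1 with shRNA 1 was 427 CPM in 6-3 and 226 or less in the other shRNA 1 libraries.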

How the results depend on the processing

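In limma, the count of members past the threshold was 0 in all comparisons under each pseudocount, filter, scaling and block tried, including the fit with no replicate block, where the smallest adjusted p under knockdown was 0.0723 (Ssr1) against 0.119 with the block. The pairing by set thus changed no call among the members. DESeq2 called 2 members under knockdown, 2 for shRNA 1, 5 in the lung minus liver effect and 2 in the NT controls. Leaving out each set in turn gave 0 to 1 in the lung minus liver effect. Without the 5 sets that differed in line transcripts the knockdown difference changed sign for Creld2 (0.51), Herpud1 (0.30), Phgdh (0.20) and Sesn2 (-0.29), and without these and the second 42-2 set for Creld2 (0.93), Phgdh (0.40) and Sesn2 (-0.38). The cause was not tested. Ddit3, at -0.002, was 0.036 with the cell line as the block, 0.0059 with median-ratio rescaling, 0.0068 with a pseudocount of 2, 0.045 with quantile normalization and 0.031 without 6-3 and 13-2. Leaving out each set gave -0.29 to 0.23 for it, -0.44 to 0.045 for Asns and -0.23 to 0.036 for Xbp1. The lung minus liver effect could not be fitted without the 5 sets, as no lung set is left.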
